A study of Etheostoma caeruleum with 31 samples.

Results

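Testis RNA of spawning rainbow darters (Etheostoma caeruleum) was compared with that of pre-spawning ones on 14 of the 31 arrays of a survey of the annual reproductive cycle. The spawning group comprised 7 adult males caught in May 2011, and the pre-spawning group comprised 7 adult males caught in March 2012. The arrays were assigned to the stages by their titles and collection months, and no array of another stage was used. All fish were wild males taken by electrofishing from an area of the Grand River, Ontario, that the submitters describe as clean, and neither group received a treatment. Each array of a stage is a biological replicate according to the labels, and RNA was labelled with Cy3 and hybridised to 1-colour Agilent oligonucleotide arrays.

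The rainbow darter is a small North American perch relative that breeds in spring. In seasonally breeding fish, germ cells divide and mature inside cysts of Sertoli cells, Leydig cells between the tubules make androgens, and ripe sperm is stored until it is released at spawning. The comparison asks what distinguishes the testis of a breeding male from that of a male about to breed. The pre-spawning fish were caught after the spawning fish, in the following calendar year, and each stage is a single collection. Stage, month, year and collection cannot be told apart.

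The files used here identify probes by name and do not pair them with genes, so transcripts are described by probe, by group and by their values in each fish. The testis label could not be checked against marker genes for the same reason. Testis was sampled as a whole tissue, and fewer cells of a type and less RNA per cell cannot be told apart. Signals are the log2 of the intensity relative to the 75th percentile of the array's spots, so that 0 is the level of that percentile and a difference of 1 is 2-fold. All differences are spawning minus pre-spawning.

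None of the 3 measures of whole-array signal tested differed between the stages beyond the spread of the arrays when all 14 were used. The level relative to Agilent's spike-in probes was not among them. The arrays of spawning testis had a 75th percentile of the intensity of 3616 ± 535 (SD, n = 7) and those of pre-spawning testis one of 3490 ± 332 (n = 7) (two-sided exact permutation test, p = 0.61, adjusted p = 0.61 over 3 measures). The percentage of the 9041 probes well above background was 87.7 ± 5.31 (n = 7) and 84.5 ± 2.81 (n = 7) (exact permutation p = 0.177, adjusted p = 0.508). Without spawning replicate 7, which had the lowest value (78%), this difference rose from 3.25 to 4.87 percentage points with an unadjusted exact permutation p of 0.0216. The 100 brightest probes held 30.4 ± 1.65% (n = 7) and 31.2 ± 1.31% (n = 7) of the summed signal (exact permutation p = 0.339, adjusted p = 0.508).

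A limited set of probes was called between spawning and pre-spawning testis, and more of the calls were higher than lower in spawning fish on the scale used here. Of 7814 probes tested, 359 (4.59%) were higher and 231 (2.96%) were lower in spawning testis at an adjusted p under 0.05 in limma, together 590 (7.55%). An unadjusted p under 0.05 in limma was found for 2018 probes. An estimate from all these p-values put the share of probes without a difference at 64.1%, so that probes not called can also differ. The called differences were mostly small. The higher probes differed by a median of 1.53-fold and the lower probes by a median of 1.34-fold, and at least 2-fold calls numbered 50 (0.64% of the probes tested) and 18 (0.23%). In this fit no probe was called at least 4-fold higher in spawning testis, whereas 4 probes were called at least 8-fold lower. The stage means correlated at 0.9898 across probes, which are not independent and differ widely in level.

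For most other transcripts the data bounded the difference. The 95% interval lay within 2-fold in both directions for 6671 probes (85.4%) and within 1.5-fold for 4627 (59.2%). Among the 7224 probes that were not called, 6274 had an interval within 2-fold, and the interval of the other 950 reached beyond it. The interval lay wholly beyond 2-fold for 11 probes, 5 higher and 6 lower. No probe was well above background on all arrays of one stage and on none of the other. With a looser limit, 10 of all 9041 probes were well above background on at least 6 spawning and at most 1 pre-spawning array, and 0 showed the opposite. The mean share of probes well above background was also higher on spawning arrays (87.7% against 84.5%), and its part in this split was not tested.

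**Figure D1:**
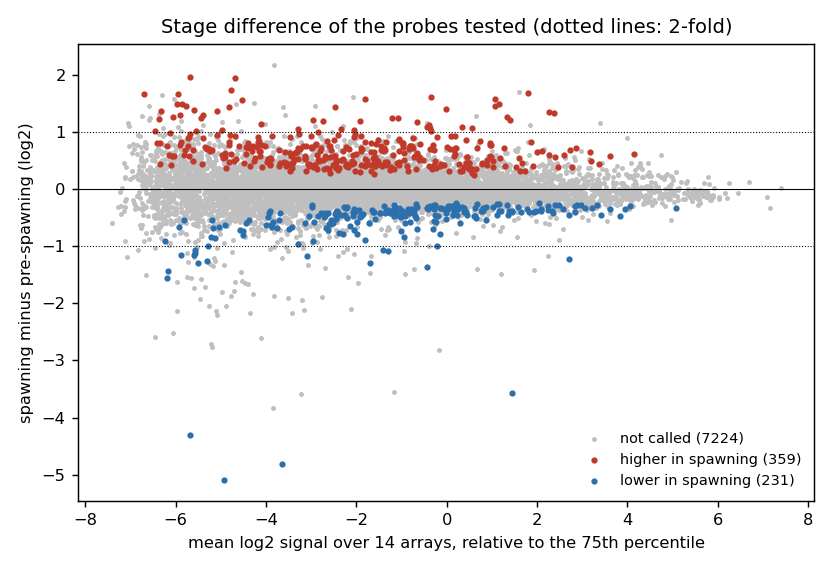
Each point is 1 of the 7814 probes. The horizontal axis gives its mean log2 signal over 14 arrays relative to the 75th percentile and the vertical axis the log2 difference, spawning minus pre-spawning. The 359 higher probes (red) stay below 4-fold, while a few of the 231 lower probes (blue) lie far below the dotted 2-fold line.

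The balance between higher and lower probes moved with the scaling. When arrays were scaled to their 75th percentile, 60.8% of the calls were higher in spawning testis, and the median of all probes tested was 0.01 above 0 on the log2 scale. With arrays centred on their median, 291 probes were higher and 346 lower, so that 45.7% of the calls were higher. Scaling to Agilent's spike-in probes moved the median of all probes to 0.27 and left 193 higher and 7 lower probes. Whether this shift of the median exceeded the spread of the arrays was not tested. No probe called under the 75th percentile scaling was called in the opposite direction under any alternative. The alternatives reuse the same arrays, so that opposite calls were unlikely from the outset. Of the 590 calls, 430 (225 higher and 205 lower) were also called in the same direction with median centring, quantile normalisation, the normexp background correction and the authors' deposited log2 table. The values of that table had nearly the same distribution on every array, as after quantile normalisation, so that these alternatives are not independent.

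The largest called differences were falls in a few transcripts whose signal was high in some pre-spawning fish. Probe GT_EA516_an_s_xh_1921 had log2 signals of -7.07, -6.59, -6.39, -5.89, -6.01, -6.16 and -4.31 in spawning replicates 1 to 7. Its signals in pre-spawning replicates 1 to 7 were -4.76, 0.97, 0.97, 1.97, -3.61, -3.31 and -0.90. Spawning replicate 7 alone overlapped with the pre-spawning range, through pre-spawning replicate 1, and replicates 2, 3 and 4 stood highest. The spawning mean of -6.06 ± 0.87 (SD, n = 7) and the pre-spawning mean of -1.24 ± 2.66 (n = 7) gave a difference of -4.82 (95% interval -6.88 to -2.76) with an adjusted p of 0.0119 in limma. This is 28.3-fold lower in spawning testis, with an interval from 6.77-fold to 118-fold. The size of the fall depended on dim spawning values (intensities of 25.1 to 193) and on a few fish. It was -3.75 with the normexp background correction (adjusted p = 0.0186 in limma), -5.41 without pre-spawning replicate 1, and -2.91 without pre-spawning replicates 2, 3 and 4 (adjusted p = 0.0395). The adjusted p stayed between 0.0103 and 0.0295 when any single array was left out.

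Probe GT_EA516_un_as_sp_15814 showed a split among fish that 1 animal of each stage crossed. Its signals were -0.92, -0.07, -2.51, -0.16, -1.40, 4.54 and -1.92 in spawning replicates 1 to 7 and 3.53, 3.51, -0.63, 4.27, 3.03, 4.57 and 4.31 in pre-spawning replicates 1 to 7. Spawning replicate 6 was thus as high as the pre-spawning fish, and pre-spawning replicate 3 was as low as the spawning fish. The means were -0.35 ± 2.33 (SD, n = 7) and 3.23 ± 1.79 (n = 7), a difference of -3.57 (95% interval -5.74 to -1.41) or 11.9-fold, with an adjusted p of 0.0459 in limma. The call was held by a small margin. The difference was -4.39 without spawning replicate 6 and -4.22 without pre-spawning replicate 3. With spike-in scaling, with no filter on dim probes and without pre-spawning replicates 2, 3 and 4 the call was lost (adjusted p of 0.0638, 0.0583 and 0.0547 in limma). It was also lost without any 1 of 12 of the 14 arrays, and only leaving out spawning replicate 6 or pre-spawning replicate 3 kept it (adjusted p from 0.0132 to 0.0879 over the 14 omissions).

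Several other probes had large falls. Of the 7 probes whose mean was at least 8-fold lower in spawning testis, 4 were called. The probe with the largest fall (34.1-fold, adjusted p = 0.0095 in limma) ranged from -8.11 to -6.78 in spawning and from -5.38 to 1.11 in pre-spawning testis, so that the stages did not overlap. It was well above background on 2 of the 7 spawning arrays, which makes its spawning level and its fold uncertain. Another fell 19.7-fold (adjusted p = 0.0204) and was also well above background on 2 spawning arrays. Of the 3 not called, a pair from the 18 custom-named probes of the array had means 14.2-fold and 12-fold lower (adjusted p of 0.0733 and 0.0892). In both, pre-spawning replicate 2 was highest, at 5.24 and 5.71, against pre-spawning medians of -3.55 and -3.08. The array held 16 custom-named probes that could be tested, and none was called, with a background of 7.55% over all probes. These are too few probes to tell their share from that background.

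In the fit that gave the 590 calls, the rises called in spawning testis stayed below 4-fold. Probe GT_EA516_an_s_sp_2091 had signals of 2.98, 1.73, 1.38, 2.73, 3.18, 3.23 and 3.23 in spawning replicates 1 to 7 and 0.49, 1.19, -0.10, 0.55, 2.62, 0.29 and 1.63 in pre-spawning replicates 1 to 7. The stages overlapped, with spawning replicates 2 and 3 lowest and pre-spawning replicate 5 highest within their stages. Its mean was 2.64 ± 0.77 (SD, n = 7) against 0.95 ± 0.93 (n = 7), a rise of 1.69 (95% interval 0.79 to 2.58) or 3.22-fold with an adjusted p of 0.029 in limma. The call was lost in 7 of the 14 omissions of single arrays (spawning replicates 1, 4, 5 and 7 and pre-spawning replicates 1, 3 and 6), with adjusted p up to 0.0587.

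Probe GT_EA516_an_as_sp_4482 had the largest rise of the called probes that exceeded the background clearly on every array. It stood at -3.06, -0.81, -4.18, -4.40, -4.04, -5.10 and -4.47 in spawning replicates 1 to 7 and at -5.64, -6.09, -5.74, -5.80, -5.85, -4.75 and -5.74 in pre-spawning replicates 1 to 7. Pre-spawning replicate 6 exceeded spawning replicate 6, and spawning replicate 2 was far above the other fish. The means of -3.72 ± 1.42 (SD, n = 7) and -5.66 ± 0.42 (n = 7) gave a rise of 1.94 (95% interval 0.84 to 3.03) or 3.83-fold with an adjusted p of 0.036 in limma. The probe was dim in pre-spawning fish (intensities of 46.9 to 129), and with the normexp background correction the difference was 1.26 and the call was lost (adjusted p = 0.0763 in limma). The difference was 1.45 without spawning replicate 2 and 1.1 without slide 2. It exceeded 4-fold and stayed called with spike-in scaling (2.2, adjusted p = 0.0214 in limma) and with slide as a block (2.19, adjusted p = 0.0418). The call was lost in 7 of the 14 omissions (spawning replicates 1 and 5 and pre-spawning replicates 1, 2, 3, 4 and 7), with adjusted p up to 0.0728.

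**Figure D2:**
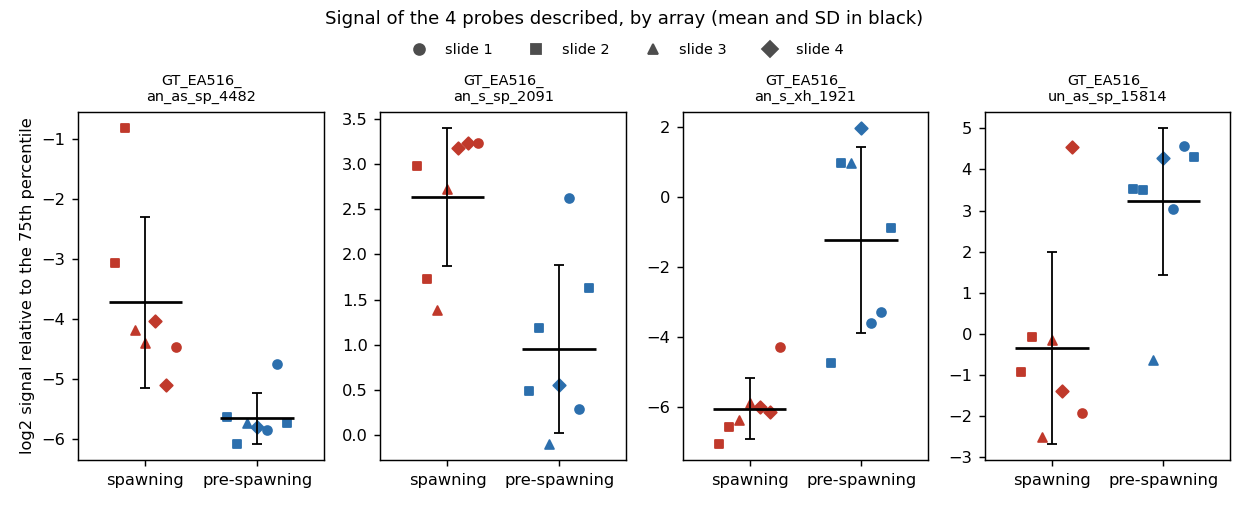
The log2 signal relative to the 75th percentile is plotted for each fish, in order of replicate number, for the 4 probes described; black lines are the mean and the SD of 7 arrays, and the symbol gives the slide. The 2 left panels show the rises and the 2 right panels the falls, with spawning replicate 6 at 4.54 among the low spawning values of the rightmost probe.

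Complete separation of the 7 spawning from the 7 pre-spawning fish was found for 205 probes (2.62% of those tested). In 111 of them (1.42%) every spawning fish was higher, and in 94 (1.2%) every spawning fish was lower. Of the 205 probes 187 were called, 105 higher and 82 lower, while 403 of the 590 called probes had overlapping stages. The gap between the stages was small, with a median of 0.06 and a maximum of 1.40 on the log2 scale. Among the at least 2-fold calls, 24 of the 50 higher probes and 5 of the 18 lower probes were free of overlap.

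Many large mean differences were not called. A mean difference of at least 2-fold was present in 86 higher and 95 lower probes, and 36 and 77 of these respectively were not called. In the 95 lower probes the median SD was 1.43 among pre-spawning and 0.95 among spawning fish, against 0.61 and 0.66 in the 86 higher probes. The corresponding medians over all probes tested were 0.26 and 0.25. Both sets include called probes. They were picked by a large mean difference in these same values, which favours a large SD. Their contrast with all probes is therefore a description.

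The spread between arrays of a stage was set beside that between spots of an array. For the 5596 tested probes with 2 spots, the median SD between the spots of an array was 0.07, and the median SD between arrays of a stage was 0.25 on the log2 scale. The latter was larger in 96.5% of these probes. It holds the spread from extraction, labelling, hybridisation and slide as well as that between fish, and these cannot be told apart. All 436 called probes with 2 spots had the same direction on each spot, and the stage differences of the spots lay a median of 0.03 apart. The spots were averaged before the call and share the RNA of the array, so that this is no check of the calls. Pre-spawning fish had the larger SD in 4211 probes and spawning fish in 3603. The median distance of a spawning array from the mean of the other arrays of its stage was 0.195 ± 0.036 (SD, n = 7), and that of a pre-spawning array 0.203 ± 0.038 (n = 7). The difference of these distances was smaller than their SD, and a two-sided exact permutation test gave p = 0.675. Each distance is taken from the other arrays of its stage. The 7 values of a stage are therefore not independent, and this p is only a guide.

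A group of transcripts had a higher signal in 3 of the 7 pre-spawning fish than in the other 4. The signal of 81 probes spanned at least 16-fold among the pre-spawning fish, and in 26 of them replicates 2, 3 and 4 held the top 3 places. The next most frequent combination, replicates 4, 6 and 7, led in 7 probes. The 26 probes had medians of -1.35, -2.45 and -2.06 in pre-spawning replicates 2, 3 and 4. In pre-spawning replicates 1, 5, 6 and 7 their medians were -5.65, -5.45, -5.19 and -4.70, and the 7 spawning fish had medians from -6.30 to -5.32. The 3 fish exceeded all of the other 11 in 22 of the 26 probes, and their lowest value lay a median of 2.01 above the highest of the other pre-spawning fish. Just 10 of the 26 cleared the background well on each of the 14 arrays, so that for the others the low values, and with them the gaps and differences, are uncertain. These fish come from slides 2, 3 and 4, each of which also holds spawning fish. Replicates 3 and 4 are the only pre-spawning fish on slides 3 and 4, and replicate 2 shares slide 2 with pre-spawning replicates 1 and 7. Pre-spawning replicates 5 and 6 are on slide 1. The part of the slide in this pattern was not tested. Of the 26 probes 3 were called, all lower in spawning testis and GT_EA516_an_s_xh_1921 among them, where 2.96% of all probes tested were called lower. The median difference of the 26 was -1.75. The probes and the fish were picked out after their values were seen, so that these values are a description with no test.

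**Figure D3:**
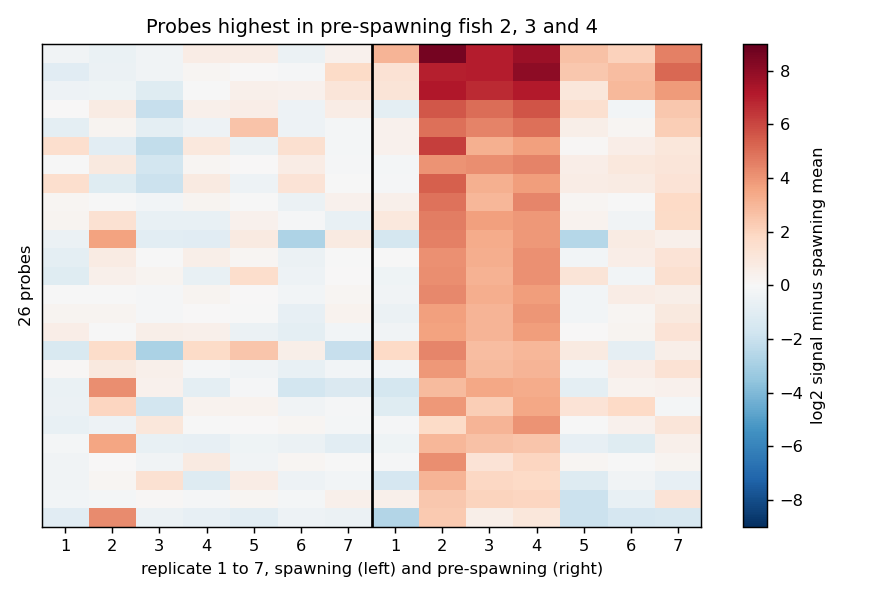
Each row is 1 of the 26 probes that span at least 16-fold among pre-spawning fish and are highest in replicates 2, 3 and 4, and each column is a fish. Colour gives the log2 signal minus the mean of the 7 spawning fish; the 3 dark columns stand above the other pre-spawning and the spawning columns, apart from isolated high cells such as those of spawning replicate 2.

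The stages did not overlap on the first principal component of the tested probes. It accounted for 21.3% of the variance between arrays, with scores of -35.9 to -2.9 in spawning and 4.25 to 27.1 in pre-spawning testis. The second component held 14.7%, and the stages overlapped on it. Spawning replicate 6 lay farthest from the other fish of its stage on both components, at -35.9 and -28.3, and its median correlation with the other spawning arrays (0.9661) was below the range of the other 6 (0.9767 to 0.9797). Without this fish 498 probes were called. The highest correlation of any of the 91 pairs of arrays was 0.9857.

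**Figure D4:**
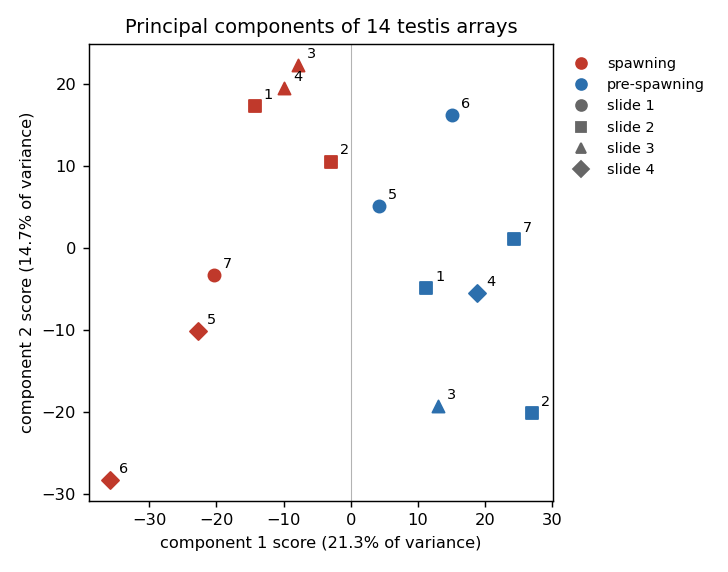
Scores of the 14 arrays on the first 2 principal components of the tested probes, coloured by stage, numbered by replicate and shaped by slide. All spawning arrays have negative and all pre-spawning arrays positive scores on component 1, and arrays of each slide lie on both sides.

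The number of calls depended on which fish were included. It ranged from 295 without pre-spawning replicate 7 to 785 without pre-spawning replicate 5. Leaving out any 1 of 7 fish lowered the count by more than 1.5 times, to 312, 382, 325 and 375 without spawning replicates 1, 4, 5 and 7, and to 344, 385 and 295 without pre-spawning replicates 1, 3 and 7. Of the 590 calls, 248 (162 higher and 86 lower) were called in every one of the 14 omissions. Of these, 184 (122 higher and 62 lower) were also called under the 4 other scalings named above and with slide as a block. Their median size was 0.67 on the log2 scale, and 37 of them differed at least 2-fold. This set was not required to hold under spike-in scaling or with a slide left out. Of the 590 calls, 169 (162 higher and 7 lower) were called under spike-in scaling. In each omission of slides 1, 3 and 4, 91 (67 higher and 24 lower) were called, and without slide 2 none was.

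The 14 arrays lie on 4 slides, and each slide holds both stages. Slide 1 holds 1 spawning and 2 pre-spawning arrays, slide 2 holds 2 and 3, and slides 3 and 4 hold 2 and 1 each. With slide as a block 263 probes were called, 174 higher and 89 lower, and 249 of them were among the 590. Without slide 2, the slide with the most arrays, no probe was called by limma (smallest adjusted p 0.0645, with 1196 probes at an unadjusted p under 0.05). The 590 probes were chosen with slide 2 included, so that their values with and without it are a description and no check of the calls. All 590 had the same direction without it, and the median size of their differences was 0.512 without it and 0.514 on slide 2 alone. The median SE of all probes rose from 0.141 to 0.181 without it. A test of whether the stage difference on slide 2 departed from that on the other slides called 0 probes in limma, and 349 had an unadjusted p under 0.05. Without slides 1, 3 and 4 the counts were 288, 346 and 189, and 79.5%, 84.7% and 86.2% of those calls had the same direction on the slide left out. On each of these slides 1 of the stages is a single array. The share over all probes tested was not computed, so that these rates have no background to be set against.

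The named probes, chosen on all 14 arrays, had the same direction on every slide. For GT_EA516_an_s_xh_1921 the differences on slides 1 to 4 were -0.85, -5.27, -7.11 and -8.06, and for GT_EA516_un_as_sp_15814 they were -5.72, -4.28, -0.70 and -2.69. For GT_EA516_an_s_sp_2091 they were 1.77, 1.26, 2.16 and 2.65, and for GT_EA516_an_as_sp_4482 they were 0.83, 3.89, 1.45 and 1.23. With the slide block GT_EA516_un_as_sp_15814 lost its call (adjusted p = 0.0615 in limma), and none of the 4 was called without slide 2. Without slides 1, 3 and 4 in turn, GT_EA516_an_s_xh_1921 had an adjusted p of 0.0144, 0.0515 and 0.0552 in limma, and GT_EA516_an_as_sp_4482 one of 0.062, 0.0706 and 0.062. The corresponding values were 0.039, 0.0444 and 0.136 for GT_EA516_an_s_sp_2091 and 0.152, 0.0471 and 0.0346 for GT_EA516_un_as_sp_15814.

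**Figure D5:**
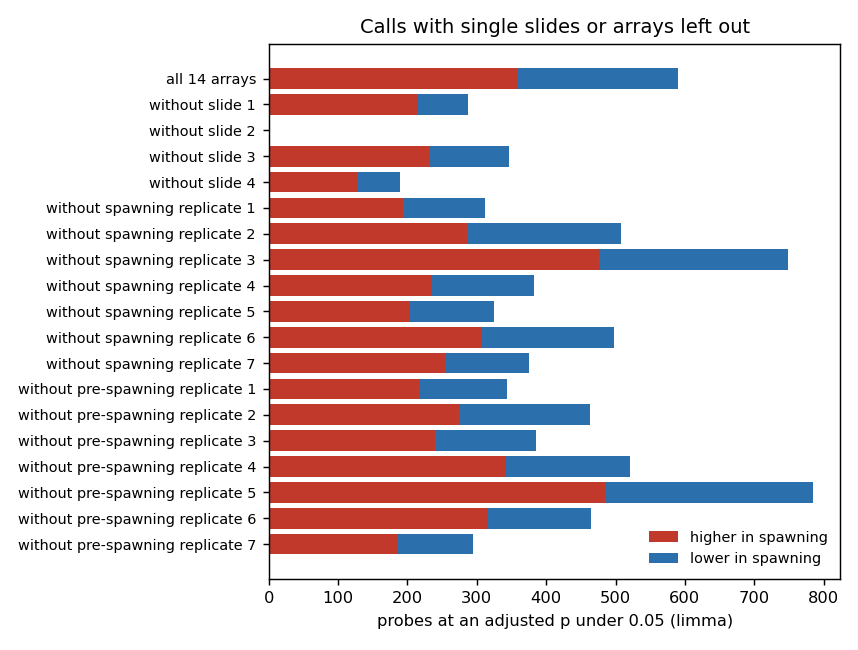
Bars give the number of probes at an adjusted p under 0.05 in limma with all 14 arrays and with single slides or arrays left out, split into higher (red) and lower (blue) in spawning testis. The count falls to 0 without slide 2 and reaches 785 without pre-spawning replicate 5.

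Calls by direction were counted for the fields within the probe names. The names carry 3 fields (an or un, s or as, and sp or xh) whose meaning neither the labels nor the files used here state. Of 5170 sp probes 261 were higher and 130 lower, whereas of 2628 xh probes 98 were higher and 101 lower, with 7.56% and 7.57% called in all against 7.55% over all probes. The median differences were 0.03 and -0.03. The balance was not uniform within xh. Of 1577 an_s_xh probes 54 were higher and 67 lower. Of the 608 an_as_xh, 282 un_s_xh and 161 un_as_xh probes, 28, 10 and 6 were higher and 24, 8 and 2 lower. The shares called were 7.73% and 7.11% for the fields an and un, and 7.58% and 7.54% for s and as. These shares lay near the overall 7.55%. Direction also varied with the brightness of the probe. The probes were divided by mean signal into 5 classes of equal size. In the dimmest class 70 (4.48%) were higher and 25 (1.6%) lower, and in the brightest class 47 (3.01%) and 53 (3.39%). Over all probes these shares were 4.59% and 2.96%. From the dimmest to the brightest class, 6.08%, 6.46%, 9.28%, 9.53% and 6.4% of the probes were called. The part of brightness and scaling in the split by name field was not tested.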

How the data were processed

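RNA was measured on 14 single-colour arrays. Per the file headers, the authors scanned them on an Agilent scanner and extracted a background-corrected intensity per spot with Feature Extraction 10.7.1.1. These intensities are not normalised between arrays. The authors' deposited log2 table, whose normalisation no source used here gives, served as an alternative, and its ranks equalled those of the intensity within each array (Spearman rho of 1.0). Its sorted values differed little between arrays (mean SD of 0.0108 on the log2 scale), as after quantile normalisation. It is therefore not independent of the alternative with quantile normalisation.

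Each log2 intensity had its array's 75th percentile over all non-control spots subtracted. Then 234 spots marked as outliers were left out, and replicate spots were averaged per probe. No spot was saturated. Of 9041 probes, 7814 were well above background (on at least a share of 0.5 of their spots) on at least 7 arrays and were tested by the lmFit and eBayes functions of limma 3.58.1 under R 4.3.3, with Benjamini-Hochberg adjustment. A fit drops a missing value, which occurs in 24 probes. Values of single arrays were tested by exact permutation over 3432 divisions. The number of arrays limits the precision. On simulated data with 200 of 7814 probes changed, the fit recovered 47.8%, 77.6% and 95.5% of 1.5-fold, 2-fold and 4-fold changes, with 7 false calls among 154. The simulated noise was normal and independent between probes, with no effect of slide or fish shared by probes. These rates therefore need not hold for the calls made here.

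The probes named are the 2 largest rises and the 2 largest falls among calls that were well above background on all 14 arrays and kept their direction without any array. Gene and marker lists gave no result, since the files do not pair probes with genes. The stages, lists and rules were chosen with earlier results of these data known. Slides follow the array barcodes, and each slide was scanned at 1 time. Alternatives covered scaling, background, filter, slide, replicate numbers, the variance model and the arrays used.

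Replicate numbers in the titles and in the descriptions differ. The deviations of same-numbered arrays correlated between -0.0882 and 0.103 by title and between -0.072 and 0.187 by description. In each, 1 of 7 pairs exceeded 0.1. These values gave no clear sign of pairing by number and cannot exclude it. The fit did not pair arrays by number, and blocks by number were alternatives.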

Additional observations from a re-analysis of the deposited data

Results flagged for a closer look

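An array was singled out when its distance from the nearest array, as a share of its stage's range, passed the 95% critical value of Dixon's test for 7 values. Of 22 groups of 7 arrays examined, 7 held such an array. Among the 22 groups, 8 belong to the named probes, which were chosen for their differences. The other 14 belong to whole-array measures taken on the same arrays, which are not independent. The count is therefore not set against a chance rate.

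Pre-spawning replicate 3 had a 75th percentile of the intensity of 4187, above its stage, and the lowest share of the signal in the 100 brightest probes (28.6%). Spawning replicate 6 had a median correlation of 0.9661 with the arrays of its stage. Without these fish 385 and 498 probes were called. Among the named probes, pre-spawning replicate 6 stood out for GT_EA516_an_as_sp_4482 (-4.75), spawning replicate 7 for GT_EA516_an_s_xh_1921 (-4.31), and spawning replicate 6 (4.54) and pre-spawning replicate 3 (-0.63) for GT_EA516_un_as_sp_15814.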

How the results depend on the processing

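Against 590 calls, the count was 637 with median centring, 672 with quantile normalisation, 553 with normexp, 667 with the authors' table, 471 with no filter on dim probes, 623 with only probes well above background on all 14 arrays and 663 with an intensity trend. It was 200 with spike-in scaling, 944 with array weights, 263 with slide as a block, and 288, 0, 346 and 189 without slides 1, 2, 3 and 4. Leaving out pre-spawning replicates 2, 3 and 4 together, an alternative chosen after seeing the data, left 263 probes. Single omissions gave 295 to 785. With the replicate number as a block the count was 168 by the titles and 132 by the descriptions, and 1 of 7 spawning fish correlated best with its own number in each. Omissions leave fewer arrays and blocks fewer residual degrees of freedom. The part of this in the changes was not tested, nor was any other cause.

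No named probe reversed, but the rule that chose these probes required the same direction without any single array. The 14 single omissions among the alternatives could therefore show no reversal, and the other alternatives reuse the same arrays. Over 32 alternatives, GT_EA516_an_s_xh_1921 was called in 29, GT_EA516_an_s_sp_2091 in 21, GT_EA516_an_as_sp_4482 in 17 and GT_EA516_un_as_sp_15814 in 13. Over single omissions the stage difference of the 75th percentile ran from -13.9 to 274, reversing without spawning replicate 6, and that of the percentage of probes above background from 2.43 to 4.87. The share of signal in the 100 brightest probes differed by -1.24 to -0.365 percentage points. The difference in distance to the own stage ran from -0.0223 to 0.00445, with reversals without spawning replicates 2 and 5 (0.000669 and 0.000754) and pre-spawning replicate 5 (0.00445). The cause was not tested.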

Other observations

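Some transcripts also varied widely among spawning fish. The signal of 82 probes spanned at least 16-fold within the spawning stage, and 30 of these did so in both stages. Replicate 2 was highest in 25 of the 82 probes, replicate 6 was lowest in 28, and replicates 1, 2 and 4 held the top 3 places in 15. Spans of at least 4-fold were found in 630 probes among spawning and 623 among pre-spawning fish, 305 of them in both.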
